A study of Drosophila melanogaster with 2 samples.

Results

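Open chromatin at the genes of cytoplasmic ribosomal proteins was described in adult mushroom body (MB) nuclei of Drosophila melanogaster. The genes were chosen by name from the RefSeq gene table of genome release 6, as protein-coding genes whose symbol starts with RpL or RpS followed by a digit or a capital letter, plus sta, the gene of the small subunit protein also known as RpSA. This gave 93 of the 13922 protein-coding genes on the 6 chromosome arms of the peak lists, namely 54 RpL genes and 39 RpS genes including sta. ATAC-seq was used, in which the transposase Tn5 inserts sequencing adapters into accessible DNA. The data held 2 replicates of 1 condition, untrained control flies, each from a pool of 50 to 60 fly heads per the labels. The flies carried w*, UAS-unc84::2xGFP over tubGal80(ts), and P{VALIUM20-mCherry.RNAi}attP2 over R14H06-Gal4. R14H06-Gal4 drives the GFP-tagged nuclear envelope protein in MB neurons, so that anti-GFP beads capture their nuclei from head homogenate. Gal80(ts) is a temperature-sensitive inhibitor of Gal4, and the mCherry hairpin has no target gene of the fly. The study's methods name male flies, and their age was not given in the sources used here. With 1 condition, no groups of flies were compared and no test was made.

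The cytoplasmic ribosome consists of a large and a small subunit, each built from ribosomal RNA and a set of proteins that most cells need in nearly equal amounts. Flies that have lost a copy of many of these genes grow slowly and have short bristles, the Minute phenotype. Several proteins have a duplicated gene, and the copies often differ in tissue, with germline copies known for some. Translation is required for long-term memory in the MB, which makes the genes of the ribosome of interest in these neurons.

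The lists of the authors held 17942 peaks in replicate 1 and 15248 in replicate 2. They hold no read counts, so that the depth behind a single peak is unknown and no interval can be given for it. All 6 marker genes of MB neurons examined (ey, dac, prt, Dop1R2, rut and Fas2) and both genes of neurons in general (elav and nSyb) had a peak in both replicates near a gene end, whereas repo of glia, ninaE and chp of photoreceptors and Mhc of muscle had none. Among all protein-coding genes, 66.1% had such a peak. Lsp2 of the fat body had a peak, with a fold enrichment in replicates 1 and 2 of 3.84 and 3.67. Near bam of the germline was a weak peak of 1.41 and 1.42, but its summit was nearest to RpS27, a member, in both replicates. For the peaks of the other markers, the gene nearest to the summit is not given here. The part of nuclei of other cells in the results below was not tested.

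Nearly all cytoplasmic ribosomal protein genes lay at open chromatin. A consensus peak, a merged region of overlapping peaks from both replicates, lay within 500 bp of a gene start or end for 89 of the 93 genes (95.7%). Among all protein-coding genes this share was 66.1%, and it was 59.1% among the other protein-coding genes in the same range of gene length. The gene table gives no strand, so that either end can be the transcription start. Each of the 39 small subunit genes had such a peak, and of the 54 RpL genes 50 did (92.6%). A consensus peak covered a gene end at 85 members, against 56.2% of all protein-coding genes. Among the other 4 members with a peak, it lay 62 bp (RpS19b), 19 bp (RpS10a) and 6 bp (RpS5b) away from the gene.

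The height of these peaks was close to the median of all protein-coding genes and above that of others in the length range of the members. Neither difference was tested. The others in the length range were not matched in length, with a median of 1884.5 bp against 1356.0 bp at the members. For each gene the peak with the highest fold enrichment, the ratio of the signal at the summit to the local background given by MACS2, was taken. Where 2 values are given together below, replicate 1 is named first. The median over the 89 members was 3.91 and 4.03. Over the other protein-coding genes with a consensus peak, it was 3.88 and 3.78, and over those in the length range of the members 3.56 and 3.48. The median of the mean of both replicates was 3.92 in the members, which is at percentile 51.9 of all protein-coding genes with a peak. Of the members, 20 were among the highest 25.0% of these genes and 13 among the lowest 25.0%. The members were spread from 1.25 to 8.39, with a standard deviation of 1.32 across genes. A mean fold enrichment of at least 5 was found at 19 members, and a value under 2 at 4. For all protein-coding genes with a peak the quartiles were 2.76 and 4.93, and their shares at these limits are not given here.

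**Figure D1:**
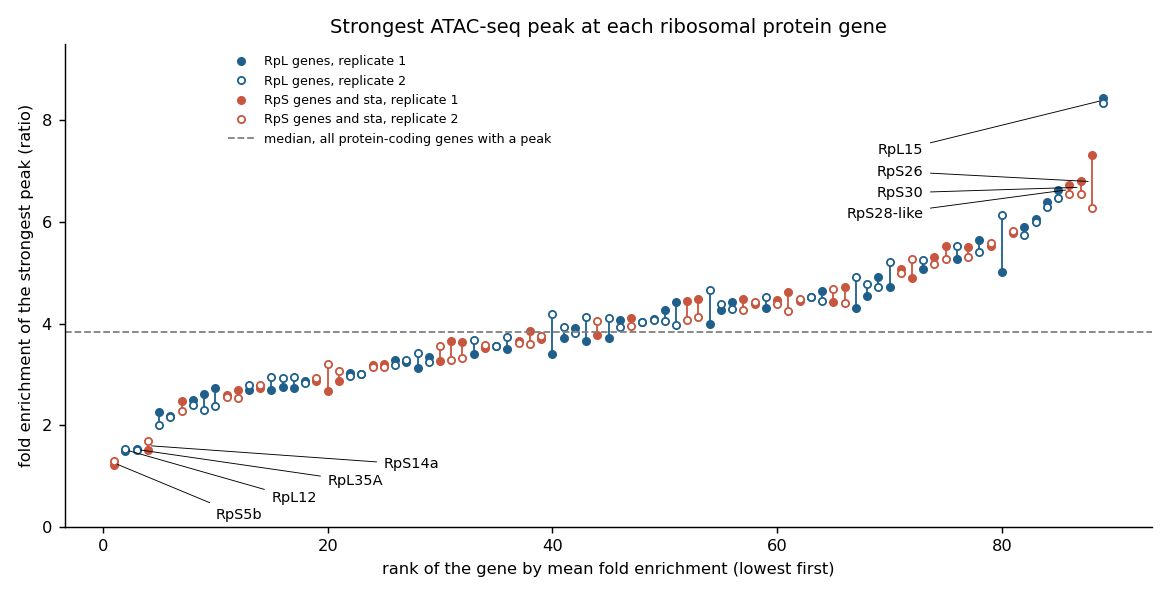
Fold enrichment of the strongest ATAC-seq peak near an end of each of 89 cytoplasmic ribosomal protein genes, ranked by the mean of 2 replicates. Filled and open circles are replicates 1 and 2, joined by a line, blue for RpL genes and red for RpS genes and sta. The dashed line is the median of all protein-coding genes with a consensus peak, and 48 members lie above it.

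The replicates ranked the genes alike. Across the 89 members, which are not independent samples and share the 2 libraries, the fold enrichment of both replicates had a Pearson's r of 0.979 on the log2 scale and a Spearman's rho of 0.969. The value was higher in replicate 1 at 50 members and higher in replicate 2 at 39, and at all 89 the replicates differed by at most 1.25 times. The difference had a median size of 0.06 on the log2 scale, against 0.07 at the other protein-coding genes. It was largest at RpL5, which with RpL11 carries the 5S rRNA into the large subunit and had values of 3.40 and 4.19. RpL38 followed with 5.01 and 6.13, and RpS15Ab with 2.68 and 3.19. All 3 of these peaks were higher in replicate 2. The summit of the one near RpS15Ab was nearest to CG12325. The peak nearest to RpS15Ab itself went the other way, with 2.45 and 2.06.

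RpL15 had the strongest peak of all members. RpL15, a protein of the large subunit, is encoded deep in the centromere-near part of 3L, from 27267255 to 27268445. Its fold enrichment was 8.45 and 8.34, at percentile 99.2 of all protein-coding genes with a peak. The summit lay 84 bp inside the gene in both replicates, and no gene outside RpL15 had an end within 500 bp of the peak. RpS26, whose protein sits at the exit of the mRNA channel, followed with 7.32 and 6.27, and RpS30 with 6.81 and 6.55. The summits of both lay inside the gene, 92 and 94 bp from the end at RpS26 and 33 and 52 bp at RpS30.

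Other strong peaks were not alike in position. At RpL21, on 2L from 22247111 to 22247875, the fold enrichment was 6.40 and 6.29 and the peak covered the whole gene. At RpS28-like, with 6.72 and 6.55, the summit lay 232 and 228 bp outside the gene and on average 12.0 bp from an end of numb, a gene of asymmetric cell division. The value of RpS28-like thus came from a peak centred at another gene.

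Among the weakest members were RpL35A and RpL12, which had no paralog among the members. RpL35A, on 3R from 5465630 to 5467101, encodes a protein of the large subunit. Its only consensus peak had a fold enrichment of 1.54 and 1.50, at percentile 2.76, and a width of 350 and 325 bp. The summit lay 7 bp outside a gene end in both replicates, and no gene outside RpL35A had an end within 500 bp of the peak. RpL12, on 2R from 24060378 to 24061860, encodes a protein at the base of the stalk of the large subunit. Its strongest peak, with 1.50 and 1.53, lay nearer to eEF5, a translation factor gene. The peak over an end of RpL12 itself was lower, with 1.44 and 1.29. All of these values were low in both replicates.

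RpL39 was the only member without a paralog that lacked a consensus peak. RpL39, on 2R from 24061853 to 24062431, overlaps the end of RpL12 by a few bases and encodes one of the smallest proteins of the ribosome. Replicate 1 had a peak over it, with a fold enrichment of 1.34, a width of 219 bp and a -log10 q of 12.3, which is above the threshold of the peak caller. In replicate 2 the nearest peak was 609 bp away, with its summit next to Rap2l. RpL12 and RpL39 were thus both low, and the replicates differed in whether RpL39 had a peak.

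RpS5b had the lowest value of all members with a peak. The gene is a copy of RpS5a that is known for its expression in the ovary, and it lies on 3R from 14900432 to 14901563. Its fold enrichment was 1.22 and 1.29, the peaks were 68 and 60 bp wide, and the -log10 q was 4.27 and 3.60. This was the only consensus peak of a member that was lost with a -log10 q of at least 5. RpS5a, on X, had a fold enrichment of 5.52 and 5.59, and its summit lay inside the gene, 38 and 18 bp from the end.

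The paralogs comprised 27 members in 13 families. Of these, 24 had a consensus peak, and RpL10Aa, RpL22-like and RpL37-2 had no peak within 500 bp in either replicate. In each of these families the other copy had one. RpL22-like, on 2R from 23246610 to 23247893, encodes a copy of RpL22 that is enriched in the testis, and the nearest peak of either replicate was 10021 bp away. RpL22, on X, had a fold enrichment of 3.28 and 3.18 with the summit 22 and 68 bp outside the gene. RpL37-2, on 2R, was the most isolated, with the nearest peaks 19411 and 19419 bp away, whereas RpL37-1 on X had 5.90 and 5.74. For RpL10Aa, on 3R, the nearest peaks were 5286 and 5282 bp away. RpL10Ab, on 3L, had a weak peak of 2.26 and 2.01, with its summit 183 and 48 bp inside the gene.

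**Figure D2:**
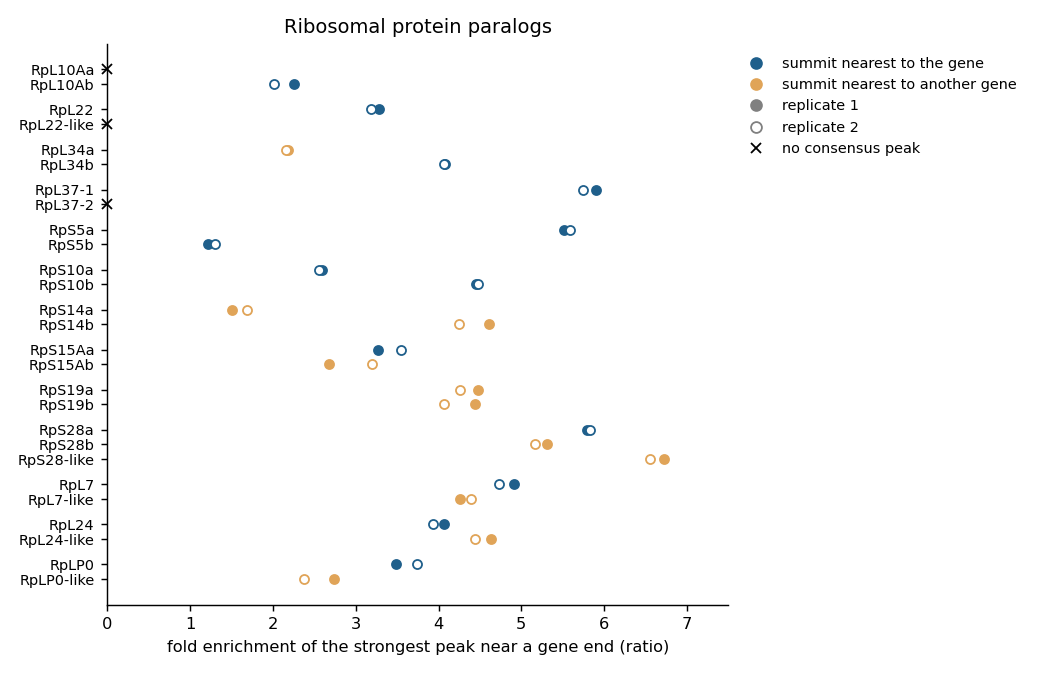
Fold enrichment of the strongest peak within 500 bp of a gene end for 27 members in 13 paralog families, with filled circles for replicate 1 and open circles for replicate 2. Blue marks genes whose summits lie nearest to the gene itself in both replicates, orange those nearest to another protein-coding gene in at least 1 replicate, and crosses the 3 genes with no consensus peak.

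The other families had a peak at every copy. RpS10b, on X, had 4.45 and 4.48 with the summit 93 and 160 bp outside the gene, while RpS10a, a copy known from the male germline, had 2.59 and 2.55 with the summit 432 and 438 bp away from the gene. RpS15Aa, on X, had 3.27 and 3.55 with the summit 76 and 108 bp inside the gene. The strongest peak near RpS15Ab had its summit 1175 and 1170 bp outside the gene and nearest to CG12325, and the peak nearest to RpS15Ab itself reached 2.45 and 2.06.

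At RpS19a and RpS19b neither summit lay nearest to the ribosomal protein gene. RpS19a, on X, had 4.48 and 4.26, and the summit was nearest to Rok. RpS19b, a copy known from the germline, had 4.44 and 4.07, with the summit 531 and 444 bp outside the gene and nearest to CG5854. The peak at RpS19a covered a gene end and that at RpS19b did not. The heights at these copies were thus close to each other, with summits away from both genes.

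The RpS28 family has 3 members, all with a peak. RpS28a, a gene of 304 bp on 3R, had 5.79 and 5.83 with the summit 99 and 128 bp inside the gene, and the peak spanned the whole gene and also came within 500 bp of Axn and Mgat2. RpS28b, on X, had a peak of 5.30 and 5.17 whose summit lay 1003 and 1000 bp away and nearest to l(1)G0320. The peak nearest to an end of RpS28b itself reached 2.84 and 2.69. As at RpS28-like, part of the signal in this family lay at ends of neighbouring genes.

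RpS14a and RpS14b lie next to each other on X, from 7933742 to 7934677 and from 7934898 to 7935792, and encode the same protein of the decoding platform. They were the only members that shared a consensus peak, which covered the stretch between the genes and had a fold enrichment of 1.50 and 1.35. On the outer side of RpS14a was a peak of 1.51 and 1.69 next to Dhdds, and on that of RpS14b a peak of 4.61 and 4.24 next to Ubr3. The authors removed reads that align to several loci, so that values within near-identical copies such as these are uncertain.

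RpL34a had 2.18 and 2.16, with the summit nearest to Trmt61, and RpL34b had 4.08 and 4.07, with the summit 41 and 36 bp inside the gene. The last 3 families pair a ribosomal protein with a protein related to yeast factors of ribosome assembly. RpL7 had 4.91 and 4.72 and RpL7-like 4.26 and 4.39. RpL24 had 4.06 and 3.93 and RpL24-like 4.63 and 4.44. RpLP0 had 3.49 and 3.74 and RpLP0-like 2.74 and 2.38. In these pairs the summit was nearest to the ribosomal protein gene in both replicates, and at each -like gene it was nearest to another gene in at least 1 replicate.

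RpLP0, RpLP1 and RpLP2 form the stalk of the large subunit that recruits elongation factors. RpLP1 had a fold enrichment of 3.72 and 4.11, and RpLP2 3.91 and 3.82. Together with RpLP0, they ranged over percentiles 44.8 to 51.9, close to the middle of all protein-coding genes. The peaks at RpLP1 and RpLP2 covered the whole gene, and the summit of RpLP2 moved by 390 bp between the replicates. The peak of sta had 3.18 and 3.15 and covered both ends of the gene when the replicates were merged, with a width of 2326 bp in replicate 1 and 1146 bp in replicate 2.

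Most summits lay near an end of the gene. The mean distance over both replicates between the summit of the strongest peak and the nearer end of the member had a median of 123.0 bp, against 220.0 bp in the other protein-coding genes with a peak. It was at most 50 bp at 25 of the 89 members (15.1% of all protein-coding genes with a peak), at most 100 bp at 37 (28.0%) and at most 500 bp at 79 (73.3%). The summit was inside the gene in both replicates at 36 members and outside in both at 48. The position was stable between replicates, with a median shift of 19.0 bp and a shift of at most 100 bp at 76 members. RpS24, RpL27A, RpL36A and RpLP2 had shifts over 300 bp, the largest being 1233 bp at RpS24, where the summit of replicate 1 was outside the gene and that of replicate 2 inside.

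**Figure D3:**
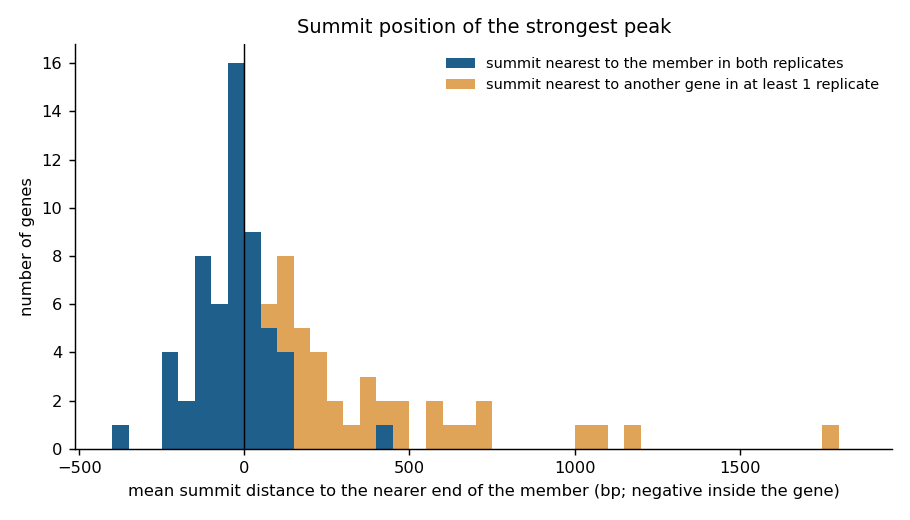
Distance of the summit of the strongest peak from the nearer end of the member, as the mean of 2 replicates in bins of 50 bp, with negative values inside the gene. Blue bars count the 56 members whose summit was nearest to them among all protein-coding genes in both replicates, and orange bars the other 33, all of which lie to the right of 0.

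The share of members with a neighbour at the same peak was close to that of other genes. The strongest peak lay within 500 bp of an end of another gene, not counting genes nested in the member, at 74 of the 89 members (83.1%). This share was 78.6% of all protein-coding genes with a peak and 84.9% of the others in the length range of the members. For 56 members the summit was nearest to an end of the member in both replicates (59.0% of all such genes). At the other 33 it was nearest to another protein-coding gene in at least 1 replicate, and 25 of these peaks nevertheless covered an end of the member. Of the 33, 6 had a weaker peak of their own, among them RpL12, RpS15Ab, RpL8, RpS4 and RpS28b. At RpL32, the gene also known as rp49 that serves as a reference in expression assays, the peak of 4.51 and 4.52 had its summit 390 and 392 bp outside the gene and nearest to CG7943.

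Some of these neighbours also act in translation or in its control. The peak of RpL13, with 4.54 and 4.78, had its summit nearest to Dref, the gene of a transcription factor of growth genes. The peak of RpL28, with 2.70 and 2.79, had its summit nearest to eIF1, and at RpL27A, with 2.70 and 2.94, a summit was nearest to mRpL27 in 1 replicate. Which of the genes such a peak belongs to cannot be told from the lists. When only peaks with the summit nearest to the member were kept, 62 members had a peak, and their median fold enrichment was 3.85. The same values for other protein-coding genes are not given here, so that neither can be set against theirs. This rule was chosen after the data had been seen.

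Peaks at the members were broad relative to these short genes. The median gene length was 1356.0 bp at the 89 members and 2864.0 bp at the other protein-coding genes with a peak, and the peaks had a median width of 1454.5 bp against 1327.5 bp. The strongest peak covered both ends of the gene at 18 members (20.2%). This share was 3.41% of all protein-coding genes with a peak and 4.93% of the others in the length range of the members. Those in the length range were longer than the members, with a median of 1884.5 bp. At mitochondrial ribosomal protein genes with a peak, whose median length was 861.0 bp, the share was 26.1%. RpS30, RpL21, RpL38, RpS2, RpS18 and RpL40, which is made as a fusion with ubiquitin, were among the 18 members. Across the members, which share the 2 libraries, Spearman's rho between width and gene length was -0.08, between fold enrichment and gene length 0.04 and between fold enrichment and width 0.34.

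**Figure D4:**
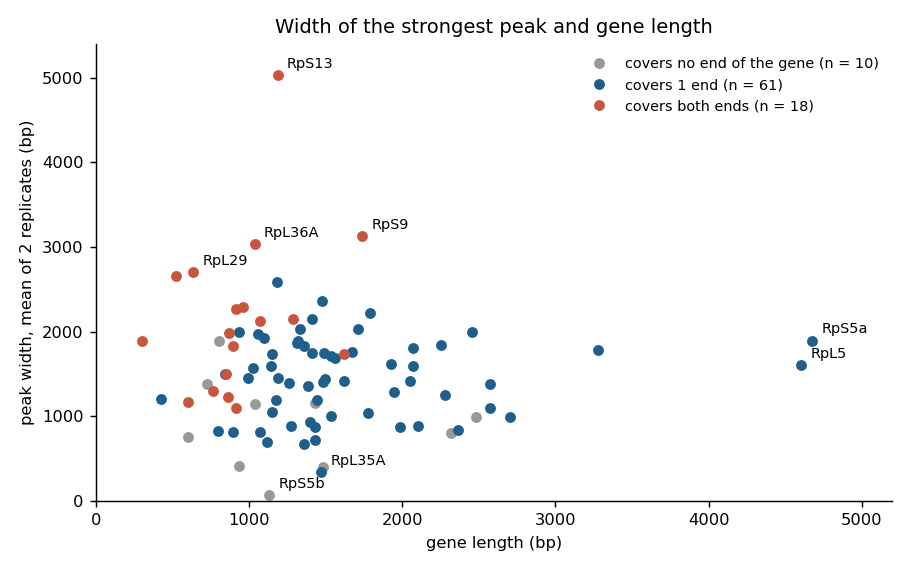
Width of the strongest peak, as the mean of 2 replicates, against gene length for 89 members. Red points mark the 18 genes covered from end to end, blue those with 1 end covered and grey the 10 with no end covered. RpS13 has a peak of 5030 bp over a gene of 1186 bp, while the longest genes, RpS5a and RpL5, have peaks of 1894 and 1606 bp that cover 1 end.

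The widest peak lay at RpS13, with 5041 bp in replicate 1 and 5019 bp in replicate 2. It ran on 2L from 8361595 to 8366675, with a fold enrichment of 2.86 and 2.92, and its summit was 1731 and 1818 bp from the gene and nearest to Pp2A-29B, a phosphatase subunit gene. The next widest peaks lay at RpS9 (3135 and 3115 bp), RpL36A (3068 and 3004 bp) and RpL29 (2805 and 2596 bp). All 4 covered the whole gene and came within 500 bp of at least 2 neighbouring genes. The narrowest were at RpS5b, RpL35A, RpL12 and RpS14a, which were also the 4 with the lowest fold enrichment. Only these 4 were under 500 bp wide, and 15 members had a mean width over 2000 bp. For all protein-coding genes with a peak the quartiles of the mean width were 890.6 and 1767.5 bp.

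All 15 members on X had a consensus peak, against 63.6% of other protein-coding genes on X. The median fold enrichment of these members was 4.32, with values from 1.60 to 5.82. The 74 members with a peak on the autosomes had a median of 3.88. For other protein-coding genes with a peak it was 3.63 on X and 3.88 on the autosomes. These differences were not tested. By arm, the medians of members were 3.92 on 2L, 3.85 on 2R, 3.75 on 3L and 3.99 on 3R. RpS3A is the only member on chromosome 4, an arm rich in heterochromatin, and had 3.65 and 3.27 with the summit 7 and 8 bp outside a gene end. RpL5 and RpL38 also lie near a centromere, as RpL15 does, and all of these genes had a peak in both replicates.

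Mitochondrial ribosomal protein genes and translation factor genes were set beside the members. Of 73 mitochondrial ribosomal protein genes, 69 had a consensus peak (94.5%), with a median fold enrichment of 3.63. The 4 without one were mRpS2, mRpL19, mRpL39 and mRpS33. Of 51 genes of initiation and elongation factors, 42 had one (82.4%), with a median of 4.24. The 9 without one were eIF2D, eIF3d2, eIF3f2, eIF3g2, eIF4E3, eIF4E4, eIF4E5, eIF4E7 and eIF4H2. The ranges between the quartiles overlapped, with 3.01 to 4.61 in the members, 2.78 to 4.42 in mitochondrial ribosomal protein genes and 3.53 to 5.21 in translation factor genes. The summit was nearest to the gene itself in both replicates at 30 of the 69 mitochondrial ribosomal protein genes and 56 of the 89 members, and this difference was not tested.

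**Figure D5:**
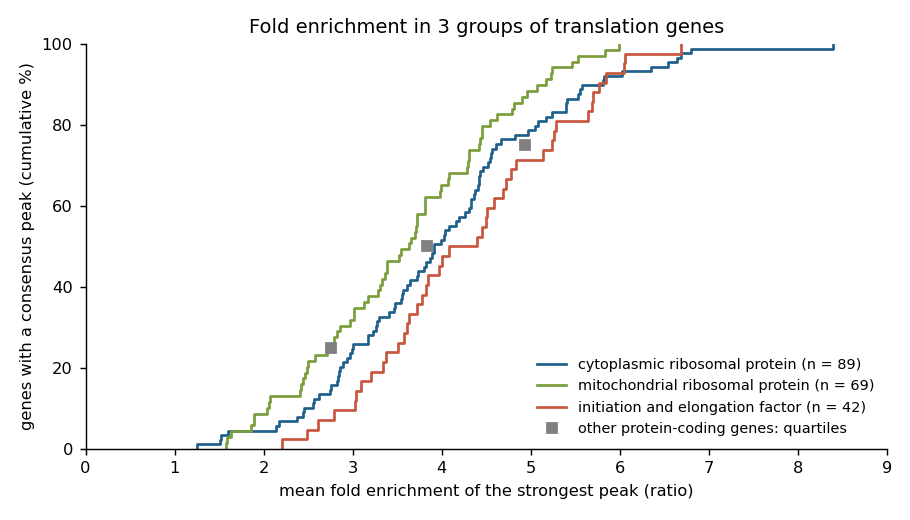
Cumulative share of genes by mean fold enrichment of the strongest peak for 89 cytoplasmic ribosomal protein genes, 69 mitochondrial ribosomal protein genes and 42 genes of initiation and elongation factors with a consensus peak. Grey squares mark the quartiles of other protein-coding genes. The medians are 3.92, 3.63 and 4.24, and the curves run over much the same range.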

How the data were processed

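ATAC-seq peak lists of 2 replicates of control MB nuclei were used. Per the labels and the study's methods, trimming by the authors used Trimmomatic (version 0.39) and alignment to release 6 used Bowtie2 (version 2.4.1). Duplicates and reads of multiple loci were removed and positions shifted for the Tn5 cut. MACS2 (version 2.1.2) was then run per replicate with a q cutoff of 0.01. The deposited values are a fold enrichment (a ratio to local background), a -log10 p, a -log10 q, a score made from the latter and the summit position. -log10 values grow with depth, so that fold enrichment was used to compare replicates and genes.

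Peaks that overlap by at least 1 bp were merged, and regions with peaks of both replicates were kept. Gene positions came from the RefSeq table of release 6, which gives neither strand nor exons, so that exons, introns and UTRs were not analysed here. Per gene, the region within 500 bp of an end with the highest mean fold enrichment was taken. Promoter motifs, promoter and protein sequences and gene starts by strand were planned and not analysed here. Of 12 translation control genes, 11 matched the table by symbol. The members, gene lists and named genes were chosen with earlier results of these data known. Named were the 6 highest and 6 lowest members, the 4 widest and narrowest peaks, paralogs, members without a consensus peak or sharing one, the 3 with the largest replicate difference, the stalk proteins and sta. Single values of some of these genes are not reported here, though counts and medians include them. RpL37-1 and other genes were named after their values were seen. Alternatives are given at the end. The code for the assignment was run on simulated peaks placed over gene ends, which a window of 500 bp must find. That check cannot tell whether a peak shared with a neighbouring gene is assigned rightly. Python (version 3.11.15), numpy (version 2.4.6), pandas (version 2.3.3), scipy (version 1.17.1) and matplotlib (version 3.10.9) were used.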

Additional observations from a re-analysis of the deposited data

How the results depend on the processing

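Over 7 results, 71 values were computed under alternatives. Of these, 66 moved by less than the spread between the replicates or, for counts, by less than 1.5 times, and 5 moved further. The limit for counts is wide, and the fall from 89 to 62 members given below is within it. The results are counts and medians without a contrast between groups, so that a change of direction was not assessed. When a peak had to cover a gene end, 7 members in place of 3 had no peak in either replicate, and the median summit distance was 109.0 bp. Each replicate alone gave a median fold enrichment from 3.88 to 4.03, a median width from 1443 to 1499.5 bp and a median summit distance from 107.5 to 123.0 bp. The count of members with a consensus peak ranged from 85 with a covered gene end to 90 with a window of 1000 bp, apart from the 62 whose own end was nearest to the summit, an alternative chosen after the data had been seen. The alternatives with only the annotated gene start and those on promoter motifs were not run, since strand and promoter sequences were not at hand. No paired analysis was possible because all samples belong to 1 condition. Peaks carry no read counts, so that what depth limits, such as the missing replicate 2 peak at RpL39, was not tested.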

Other observations

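Small nucleolar RNA genes, whose products guide the modification of ribosomal RNA, lay inside 29 of the 93 ribosomal protein genes, 76 in all. A consensus peak was found for all 29 hosts, and for 89 of all 93 members. Their median fold enrichment was 3.91, against 3.96 at the members with a peak and no such RNA. Among genes that control translation or ribosomal protein genes, all 11 that matched the gene table had a consensus peak near an end. This share was 66.1% among all protein-coding genes. The 11 genes were long, with a median length of 7568.0 bp, and the peak of Dref was the one given above for RpL13. S6k, the kinase that phosphorylates RpS6, had 4.50 and 4.29 as fold enrichment, with replicate 1 named first. Thor, an inhibitor of cap-dependent initiation, had 3.85 and 3.59, and Myc, a driver of ribosome production, had 3.31 and 2.97. RpS6 itself had 3.52 and 3.58. The lowest of the 11 was Xrp1, a transcription factor that acts in flies with a lost ribosomal protein gene copy, with 1.59 and 1.46.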
